A study of Mus musculus with 24 samples.

Results

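Pou5f1 (also called Oct4), Nanog, Sox2, Sall4, Utf1, Fbxo15 and Zscan10 are genes of the transcription factor network that keeps embryonic stem cells (ESCs) pluripotent. These 7 genes were taken by name from the 21909 gene symbols of the RNAseq tables of ESCs and neural progenitor cells (NPCs), and all 7 were found there in every one of the 6 RNAseq samples. The study mapped the genomic domains that contact the nucleolus (nucleolus-associated domains, NADs) in both cell types and asked how these contacts change during differentiation. RNAseq was measured in 3 ESC and 3 NPC samples, and Nucleolar-DamID in 2 samples of the nucleolar fusion H2B-Dam-NoLS and 2 of the control fusion H2B-Dam for each cell type. The ESCs were of the E14 line and grew without feeder cells in medium with LIF and 2i, the pair of inhibitors that holds mouse ESCs in the naive state. The NPCs came from the same E14 cells, which were kept as embryoid bodies for 8 days in serum medium without LIF and received 2 µM retinoic acid over the last 4 days. No genotype differed between the RNAseq groups. For Nucleolar-DamID, Shield1 (1 µM) and doxycycline (100 ng/ml) were given over 15 h to switch on the Dam fusions. NPCs were thus a culture defined by a protocol and not by sorting.

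Pou5f1 protein, a POU homeodomain factor, and Sox2, a factor with an HMG box, bind DNA side by side at composite sites made of an octamer and a SOX motif, and together with the homeodomain protein Nanog they activate each other's genes and those of many other factors of the pluripotent state. Sall4, a zinc finger protein of the spalt family, and Zscan10, a zinc finger protein with a SCAN domain, belong to the same network, whereas Utf1, a chromatin protein, and Fbxo15, an F-box protein, are known as its targets. Sox2 differs from the others in that neural progenitors use it as well.

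The authors deposited the RNAseq data as RPKM, reads per kilobase of gene scaled to the size of the library, in one table for each cell type. In these tables the product of RPKM and the length of the gene on the chromosome, introns included, fell on whole multiples of one step per sample. Of the values that stand for up to 1000 reads, between 94.1% and 94.4% in each sample were whole to within 0.02 reads. The deposited RPKM are thus per kilobase of gene span and not of exons, and reads could be counted back. The step gave 34.1, 33.7 and 30.8 M reads for ESC replicates 1, 2 and 3 and 30.2, 27.3 and 32.3 M reads for NPC replicates 1, 2 and 3. In the text below RPKM means the deposited scale, and a level per kilobase of exons is named as such. RPM are the same reads scaled to the size of the library and not to length. Intervals of read numbers are exact Poisson 95% intervals and cover counting error only.

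The labels describe the 3 samples of each cell type as separate culture dishes. ESC replicate 3 stood apart from the other ESC samples. Between ESC replicates 1 and 2, 0 of the 7222 genes with a mean of 1 RPKM or more differed by over 1 on the log2(RPKM + 1) scale, whereas 368 genes did so between ESC replicates 1 and 3 and 292 between 2 and 3. In NPCs the number was 2 between replicates 1 and 2, 2 between 1 and 3, and 0 between 2 and 3. The difference of ESC replicate 3 went with transcript length. With the tested genes divided by exon length into 4 groups of equal size, in the group with the shortest exons, up to 1943 bases, its RPKM was 1.52 times the mean of ESC replicates 1 and 2 at the median, and in the group with the longest, from 4584 bases, 0.565 times. In every pair of replicates the reads differed by more than the noise of sampling reads. This does not tell separate cultures from repeat libraries, and the samples were counted as separate on the word of the labels. ESC and NPC values came in separate tables with no batch named for either, so the cell type and a batch cannot be told apart.

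The labels were checked against marker genes, with the limma test that the next paragraph describes and its filter of 1 RPKM. Pax6, a homeobox factor of neural progenitors, had 0.0134, 0.0167 and 0.00457 RPKM in the 3 ESC samples, in the order of their numbers, and 1.55, 1.42 and 1.67 RPKM in the 3 NPC samples. Nes, which encodes the intermediate filament nestin, lay between 3.25 and 3.79 RPKM in ESCs and between 29.4 and 32.7 RPKM in NPCs. Of 10 markers of neural progenitors, 8 passed the filter, 6 of these were called higher in NPCs, as were 36.9% of all tested genes, and none was lower. Of the 8 markers 4 (Pax6, Sox1, Sox3 and Hes5) passed only through their NPC values, which sets their direction, so the levels and not the count bear on the label. The summed RPKM of the 10 markers was 43.3, 44.9 and 51.8 in the ESC samples and 95.3, 102.8 and 107.2 in the NPC samples, with Vim as the most abundant. Hes5, a target of Notch signalling, was listed at 0 in all 3 ESC samples. The summed RPKM of 6 endoderm markers was 0.164, 0.178 and 0.120 in ESCs and 17.5, 18.9 and 18.1 in NPCs, with Gata6 as the most abundant there. For 5 mesenchyme markers the sum was 0.305, 0.333 and 0.193 in ESCs and 70.3, 79.7 and 78.2 in NPCs, with Twist1 as the most abundant. Endoderm and mesenchyme had 5 tested markers each, and all of them rose in NPCs, though they passed the filter only through their NPC values. Most markers of the remaining lineages did not pass the filter, so their counts are given with all genes above 0 tested, where 39.5% of 18360 genes were called higher and 22.9% lower. Of 7 neuron markers 5 were then called higher, such as Dcx (0.94), and 2 lower, Tubb3 (-0.69) and Stmn2 (-2.25). The summed RPKM of the 7 neuron markers went down, from 11.1, 12.2 and 14.5 in ESCs to 7.03, 5.68 and 6.76 in NPCs. Tubb3 was the most abundant of them in both cell types. Of 6 mesoderm markers 2 were higher, Kdr (1.86) and Tbx6 (0.62), and 3 lower, T (-0.95), Eomes (-0.52) and Mixl1 (-0.12). The summed RPKM of the 6 mesoderm markers lay between 1.95 and 2.48 in ESCs and between 3.93 and 4.31 in NPCs. Kdr was the most abundant of them in NPCs and passed the filter only through its NPC values. Of 5 markers of the formative epiblast 2 were higher and 2 lower. Of 6 trophoblast markers 3 were higher and 1, Cdx2, lower. The keratin genes Krt8 and Krt18 made up nearly all of the trophoblast sum of 49.8, 52.1 and 51.2 RPKM in NPCs, against 2.85, 3.11 and 4.39 RPKM in ESCs, and Elf5, Hand1 and Tpbpa stayed at or below 0.0242 RPKM in every sample. Of 7 germ cell markers 6 were lower and 0 higher. Of 4 blood markers 2 were higher and 0 lower, with a sum of 0.0149, 0.0136 and 0.0210 RPKM in ESCs and 0.736, 0.990 and 0.788 RPKM in NPCs. The lineages thus differed in direction. The part of such cells in the results below was not tested. In such bulk samples fewer cells of a type and less RNA per cell cannot be told apart.

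The difference between NPCs and ESCs was tested with limma on log2(RPKM + 1), with Benjamini-Hochberg adjustment over the 7835 genes that had 1 RPKM or more in at least 3 samples. All 7 factors were tested and all 7 were lower in NPCs at an adjusted p of 0.05, while 70.2% of the 7835 genes were called, 33.3% lower and 36.9% higher. All NPC samples lay below all ESC samples for each of the 7 genes, as they did for 38.4% of the tested genes, and for 41.6% all NPC samples lay above. Since 5 of the 7 genes stayed below 1 RPKM in all NPC samples and reached the test only through their ESC values, their count says little by itself. For a gene near 0 RPKM in NPCs, the size of the difference on this scale also follows its ESC level. The mean log2(RPKM + 1) of Pou5f1 was 7.26 in ESCs and 0.07 in NPCs, and that of Fbxo15 was 2.83 and 0.02. The ratio in RPM is therefore given below for each of the 7 genes. The median difference was -4.02 over the 7 genes and 0.02 over all tested genes. A fall of more than 2 on this scale was called for 212 of the tested genes, or 2.71%, and the 7 factors were among them.

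Below, the values of a cell type stand in the order of replicates 1, 2 and 3. Pou5f1 had 129.96, 135.6 and 202.1 RPKM in ESCs, and 0.0558, 0.0386 and 0.0651 RPKM in NPCs. The lowest ESC value was thus 1996 times the highest NPC value, and among the ESCs replicate 3 was set apart above the others. In reads, the NPC values correspond to 8 (3.45 to 15.8), 5 (1.62 to 11.7) and 10 (4.80 to 18.4), and the 3 intervals overlap. The difference on the log2(RPKM + 1) scale was -7.19 ± 0.177 (SE), lower in 3 of 3 NPC samples (limma, adjusted p = 2.36e-07), the fourth largest fall of all tested genes by size. This scale understates the change of a gene that falls to such low values. Summed over samples, 72361 reads in ESCs stood against 23 in NPCs, a ratio of 2864 in RPM (exact 95% interval from counting, 1908 to 4518). Without ESC replicate 3 the log2 difference was -6.99.

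Nanog was the steadiest of the 7 genes in ESCs, with 100.7, 98.9 and 94.8 RPKM and a coefficient of variation of 3.10%, against 25.7% for Pou5f1. The NPC samples had 0.0696, 0.0667 and 0.0260 RPKM, or 15, 13 and 6 reads. NPC replicate 3 was the lowest, but its interval of 2.20 to 13.1 reads overlapped those of the other NPC samples, 8.40 to 24.7 and 6.92 to 22.2. The log2 difference was -6.56 ± 0.0777 (SE), again with all NPC samples lower (limma, adjusted p = 1.42e-07), and -6.58 without ESC replicate 3. In RPM the ratio of ESCs to NPCs was 1852 (1325 to 2675).

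Unlike Pou5f1 and Nanog, Sox2 kept a sizeable level in NPCs. It had 156.9, 154.3 and 141.6 RPKM in ESCs and 6.82, 8.56 and 9.91 RPKM in NPCs. The NPC values stand for 423, 480 and 658 reads. The interval of 12.7 to 15.4 RPM in NPC replicate 1 lay below the 16.1 to 19.3 of replicate 2 and the 18.8 to 22.0 of replicate 3. NPC replicate 1 thus differed from both by more than counting error. The intervals of NPC replicates 2 and 3 overlapped, which does not settle whether they too differed by more than counting error. The log2 difference was -4.02 ± 0.147 (SE), lower in 3 of 3 NPC samples (limma, adjusted p = 1.10e-06), and -4.07 without ESC replicate 3. By RPM the level in ESCs was 17.9 times that in NPCs (17.0 to 18.8), so NPCs held 5.59% of the mean RPKM of ESCs. Within the NPC samples Sox2 ranked between 1269 and 1844 of the 21909 symbols, and within the ESC samples between 99 and 148. On the scale of exon length, an alternative chosen after seeing the data and one where Sox2 as a gene without introns loses ground to genes with long introns, its ranks in NPCs were 6513 to 7774 of 21597.

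Sall4 also kept a measurable level, and NPCs held 8.55% of its mean RPKM in ESCs. In RPM its NPC mean of 25.9 lay above the 17.3 of Sox2, without overlap of their ranges. Its RPKM was 15.999, 16.9 and 13.5 in ESCs and 1.12, 1.31 and 1.53 in NPCs, with 663, 703 and 970 reads behind the NPC values. ESC replicate 3 was the lowest ESC sample, in contrast to Pou5f1. Sall4 had the longest exon length of the 7 genes, 5073 bases. The log2 difference was -2.82 ± 0.116 (SE), lower in 3 of 3 NPC samples (limma, adjusted p = 1.82e-06) and -2.91 without ESC replicate 3, and the ratio in RPM was 11.7 (11.2 to 12.2), the smallest of the 7 genes.

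Zscan10 had 15.9, 17.2 and 15.1 RPKM in ESCs, close to Sall4, and 0.884, 0.736 and 0.631 RPKM in NPCs. The NPC values rested on 271, 204 and 207 reads and lay below those of Sall4 in each of the 3 NPC samples. Its log2 difference was -3.29 ± 0.0924 (SE), lower in 3 of 3 NPC samples (limma, adjusted p = 3.73e-07) and -3.33 without ESC replicate 3, and its ratio in RPM 21.5 (19.9 to 23.3). Sox2, Sall4 and Zscan10 thus formed the part of the 7 genes with at least 204 reads in every NPC sample, while the remaining 4 genes had at most 25 reads in any NPC sample.

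Utf1 varied most among ESCs, with 36.5, 48.3 and 65.9 RPKM in replicates 1, 2 and 3 and a coefficient of variation of 29.4%. The 3 ESC values differed by more than counting error, from 48.3 to 87.2 RPM. In NPCs Utf1 had 0.226, 0.250 and 0.140 RPKM, which are 9, 9 and 6 reads. Its log2 difference was -5.37 ± 0.206 (SE), lower in 3 of 3 NPC samples (limma, adjusted p = 1.35e-06), and -5.16 without ESC replicate 3. The ratio in RPM was 246 (165 to 384).

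Fbxo15, whose product is part of a ubiquitin ligase, shows how much the length scale and the pseudocount matter. Its deposited values were 5.55, 5.49 and 7.44 RPKM in ESCs and 0.0178, 0.00943 and 0.00796 RPKM in NPCs. By these numbers it was the lowest of the 7 genes in both cell types, but its gene spans 46692 bases with only 2053 bases of exons, and behind the ESC values stood 8822, 8641 and 10697 reads. In NPCs there were 25, 12 and 12 reads. On the deposited scale the log2 difference was -2.81 ± 0.111 (SE), lower in 3 of 3 NPC samples (limma, adjusted p = 1.53e-06), about that of Sall4, and -2.69 without ESC replicate 3. With RPKM per kilobase of exons, an alternative chosen after seeing the data, it was -6.79, and the ratio in RPM was 523 (396 to 707), far above the 11.7 of Sall4. On the deposited scale the log2 difference was -5.79 with a pseudocount of 0.1 and -8.16 with 0.01.

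**Figure D1:**
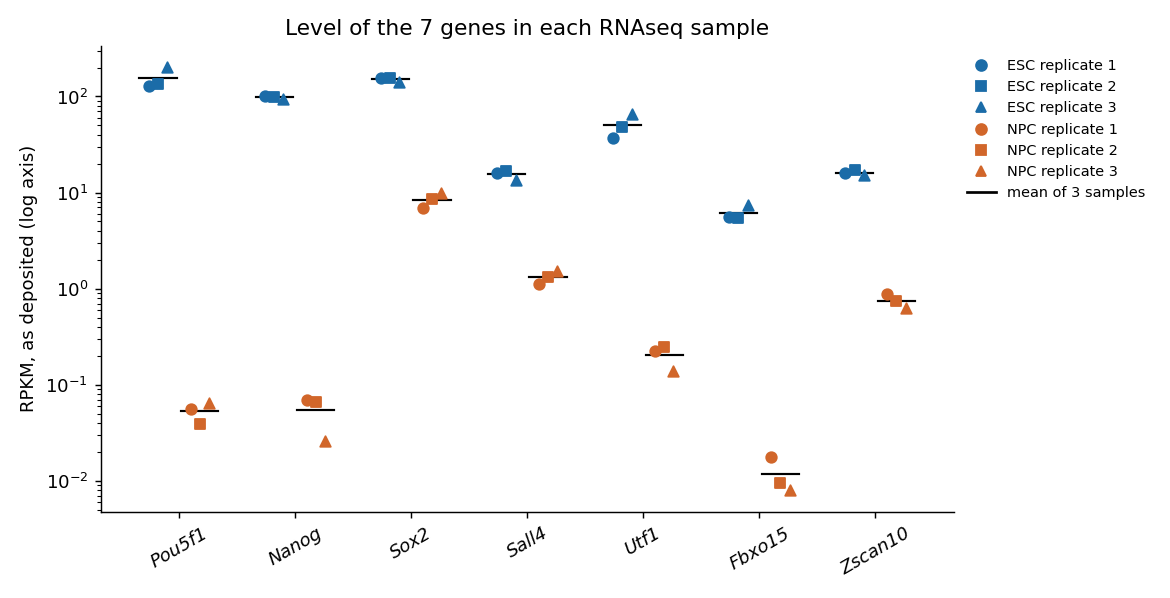
RPKM as deposited, on a log axis, for the 7 genes in each of the 3 ESC and 3 NPC samples (symbols), with the mean of each cell type as a black line. All NPC values lie below all ESC values of the same gene, and Sox2 has the highest NPC values, 6.82 to 9.91 RPKM.

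The order of the levels within a cell type was taken from the mean RPKM, and neighbours were separated only where their ranges over 3 samples did not overlap. On the deposited scale the order in ESCs was Pou5f1 (mean 155.9 RPKM), Sox2 (150.9), Nanog (98.1), Utf1 (50.2), Zscan10 (16.1), Sall4 (15.5) and Fbxo15 (6.16). Pou5f1 and Sox2 overlapped, as did Zscan10 and Sall4, and all other neighbours were separate. In NPCs the order was Sox2 (8.43), Sall4 (1.32), Zscan10 (0.750), Utf1 (0.205), Nanog (0.0541), Pou5f1 (0.0532) and Fbxo15 (0.0117), with an overlap only between Nanog and Pou5f1. Levels per kilobase of exons, computed from the GENCODE M21 basic transcripts as an alternative chosen after seeing the data, gave another order. They assume that the counted reads came from exons. The study states that exon coverage was computed, but this was not tested here. In ESCs Pou5f1 (544) was then separate from Nanog (313) and Nanog from Sox2 (151), Fbxo15 (140.1) overlapped Sox2, and Zscan10 (60.4), Sall4 (59.8) and Utf1 (54.2) overlapped as neighbours. In NPCs Sox2 (8.43), Sall4 (5.11) and Zscan10 (2.82) kept the places at the top, each separate from the next, and Fbxo15 (0.266), Utf1 (0.221), Pou5f1 (0.186) and Nanog (0.172) overlapped as neighbours. With the exons of RefSeq transcripts, also chosen after seeing the data, Fbxo15 (158.9) lay above Sox2 (125.8) in ESCs without overlap, and Sox2 (7.03) and Sall4 (5.11) overlapped in NPCs.

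**Figure D2:**
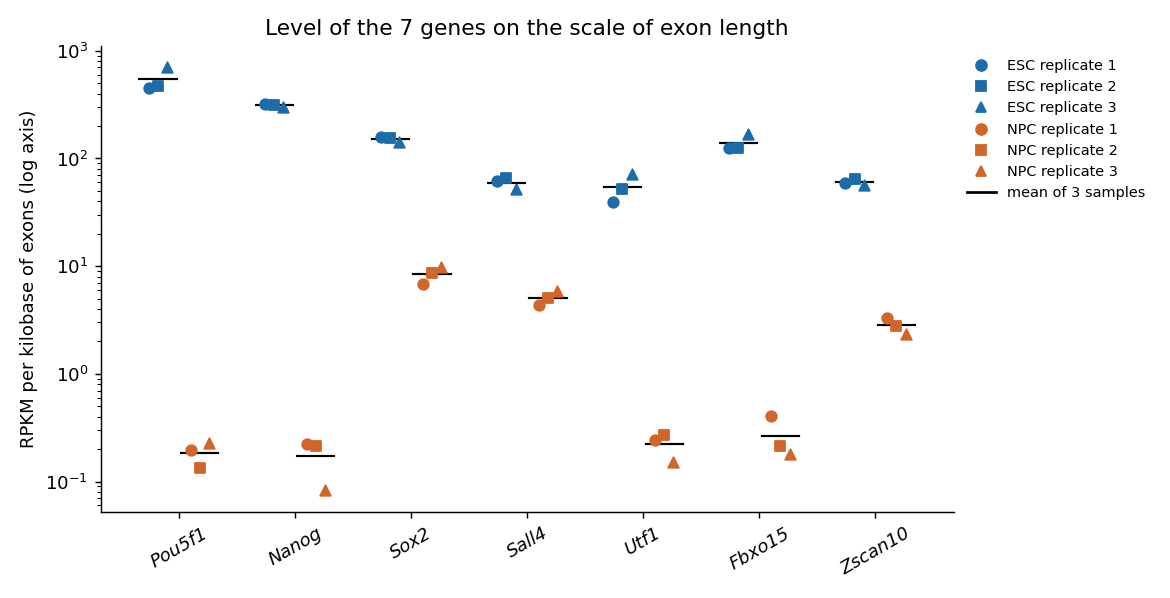
RPKM per kilobase of exons (GENCODE M21 basic transcripts), on a log axis, for the same genes and samples, with means as black lines. Fbxo15 reaches the level of Sox2 in ESCs on this scale, and Sox2, Sall4 and Zscan10 lie above the other 4 genes in NPCs.

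Together the 7 genes took up between 0.244% and 0.278% of all reads of an ESC sample and between 0.00469% and 0.00579% of an NPC sample. In ESCs Pou5f1 ranked 113, 116 and 114 among the 21909 symbols, Nanog between 139 and 215, Utf1 between 270 and 352, Zscan10 between 804 and 1088, Sall4 between 817 and 1194, and Fbxo15 between 1953 and 2417. In NPCs Pou5f1 ranked between 12640 and 13347 and Nanog between 12593 and 13813. Between 15618 and 16870 symbols were above 0 in a sample, so in NPCs both genes were listed above many genes that also had reads.

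Whether Sox2 changed by another amount than the other factors was tested with the log2 ratio of Sox2 to each of them within a sample, by exact permutation of the 6 samples in both directions, for which p cannot be below 0.1. Against Pou5f1 the log2 ratio of RPKM + 1 was 0.27, 0.18 and -0.51 in ESCs and 2.89, 3.20 and 3.36 in NPCs, a mean difference of 3.17. Against Nanog the mean difference was 2.53 and against Utf1 1.35, so on this scale the fall of Sox2 was smaller than theirs. Against Sall4 it was -1.20, the other direction. The sizes depend on the pseudocount: with 0.1 in place of 1 they were 5.81 against Pou5f1, 5.17 against Nanog, 3.18 against Utf1 and -0.71 against Sall4, and with 0.01 they were 7.09, 6.49, 3.69 and -0.63. In each of the 6 pairs the ESC and NPC ratios did not overlap and the exact permutation test gave p = 0.1, also after adjustment over the 6 pairs, which does not pass 0.05 and could not. Without ESC replicate 3 the difference against Pou5f1 was 2.92 (exact permutation p = 0.2, the smallest possible with 5 samples). The sign against Fbxo15 (-1.21) and Zscan10 (-0.73) also depended on the pseudocount: with 0.1 the differences were 1.63 (exact permutation p = 0.1) and 0.10 (exact permutation p = 0.7).

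ESC replicate 3 did not move the 7 genes as one. Relative to the mean of ESC replicates 1 and 2, its RPKM was 1.55 times as high for Utf1, 1.52 for Pou5f1 and 1.35 for Fbxo15, and 0.950 for Nanog, 0.912 for Zscan10, 0.910 for Sox2 and 0.819 for Sall4. Utf1 and Pou5f1, with 1227 and 1362 bases of exons, were in the group of tested genes with the shortest exon length, and Sall4 in the group with the longest. Nanog, Sox2, Fbxo15 and Zscan10 were all in the group from 1943 to 3087 bases, where the median was 1.07, and there Fbxo15 lay above this median and the other 3 below it. The part of transcript length in these differences was not tested. Without ESC replicate 3 all 7 genes were still called lower in NPCs.

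Genes known as targets of Oct4 and Sox2 were lower throughout. Of 6 such genes 6 were tested and 6 fell, with a median log2 difference of -4.88 against 0.02 for all tested genes, of which 33.3% were called lower. They passed the filter only through their ESC values, as did most genes of the next lists that fell, so the counts add little. Where NPC values were near 0 RPKM, the sizes on this scale largely follow the ESC levels, and the levels themselves are given for some genes. Spp1, which encodes osteopontin, had 102.9, 95.5 and 154.4 RPKM in ESCs and between 0.136 and 0.141 RPKM in NPCs (log2 difference -6.67 ± 0.185, limma, adjusted p = 3.58e-07). Tdgf1, a co-receptor of Nodal, fell by 5.96 (limma, adjusted p = 1.76e-07), and Zfp42 (Rex1) had a difference of -5.37 (limma, adjusted p = 1.76e-07), each with 3 of 3 NPC samples lower.

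Factors of the naive state formed a similar picture, and some genes, such as Zfp42 and Tdgf1, stand in more than one list. Of 12 genes 11 were tested and all 11 fell, beside 33.3% of all tested genes, with a median of -3.87. Klf2, a Krüppel-like factor, fell by 5.46 from between 69.9 and 107 RPKM in ESCs to between 0.811 and 0.999 RPKM in NPCs, and Tfcp2l1 by 4.09 from between 8.92 and 23.0 RPKM to between 0.0395 and 0.0522 RPKM. Tbx3, a T-box factor, kept the highest NPC level of this list, 6.62 to 7.27 RPKM, and fell by 0.79 (limma, adjusted p = 0.00871). Of 21 other genes of the pluripotent state 20 were tested, 18 fell, 0 rose and 2 were not called, with a median of -2.12, while 33.3% of all tested genes were lower and 36.9% higher. The largest fall was that of Dppa5a, which had 1307, 1294 and 3131 RPKM in ESCs and 0.354, 0.130 and 0.110 RPKM in NPCs, a log2 difference of -10.51 ± 0.355 (SE). Gdf3, a ligand of the TGF-beta family, fell by 5.33. The 2 genes without a call were Jarid2 (difference 0.18, adjusted p = 0.284 from limma) and Rif1 (-1.01, adjusted p = 0.0671 from limma), and in ESC replicate 3 Rif1 was at 3.91 RPKM beside 14.1 and 12.4 RPKM in the other ESC samples.

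Relatives of Pou5f1, Sox2 and Sall4 were compared family by family. Of the 14 other POU genes 4 passed the filter, the 4 class III genes, factors of neural development. They stayed below 0.15 RPKM in all ESC samples and passed only through their NPC values, so that all 4 rose is set by the filter. With all 14 genes tested, 6 were called higher and 3 lower, close to the shares of 39.5% and 22.9% over all genes without the filter, so these counts say nothing particular of the family. One of the genes called lower was Pou2f3, with 1.16, 1.16 and 0.791 RPKM in ESCs and at most 0.000767 RPKM in NPCs (difference -1.02, limma without the filter, adjusted p = 0.000164). Pou3f2 (Brn2) had between 0.0233 and 0.0841 RPKM in ESCs and 7.74, 8.12 and 9.87 RPKM in NPCs, a log2 difference of 3.17 ± 0.098 (limma, adjusted p = 5.46e-07). Pou3f3 rose by 2.28, Pou3f4 by 2.22 and Pou3f1 by 1.52, each above ESCs in 3 of 3 NPC samples. Among the SoxB genes, Sox3 had between 0.230 and 0.341 RPKM in ESCs and 7.01, 8.89 and 10.5 RPKM in NPCs (difference 2.92 ± 0.138, limma, adjusted p = 3.61e-06), so that in every NPC sample it was listed close to Sox2. Both genes have a single exon, which keeps the length scale out of this comparison in good part. Sox1 rose by 0.73 to between 1.12 and 1.81 RPKM, and Sox21 fell by 0.72. Without the filter Sox14, at most 0.0287 RPKM in ESCs, was also called lower (-0.028, limma, adjusted p = 0.0083). Of the 4 SoxB genes 2 were then higher and 2 lower, beside 39.5% and 22.9% of all genes. In the Sall family, Sall1 fell by 2.51 from 16.8, 17.3 and 8.35 RPKM in ESCs to 1.39, 1.51 and 1.76 RPKM in NPCs, as Sall4 did, and Sall2 rose by 2.78 from between 0.353 and 0.559 to between 8.57 and 9.66 RPKM. Sall3 did not pass the filter, with 2.25, 2.22 and 0.917 RPKM in ESCs and 0.333, 0.385 and 0.484 RPKM in NPCs. Without the filter it was called lower (-0.96, limma, adjusted p = 0.0132), so that 2 of the 3 relatives of Sall4 were lower and 1 higher. Of the 3 tested SoxB genes Sox1 and Sox3, and of the Sall genes Sall2, passed the filter only through their NPC values.

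Of 9 genes known as repressors of Pou5f1 or Nanog, 6 were tested, 4 rose and 2 fell, with a median of 1.62. Of those that rose, Nr2f1, Nr2f2 and Dnmt3a passed the filter only through their NPC values. Without the filter 4 were called higher and 4 lower, with a median of 0.04, beside 39.5% higher and 22.9% lower over all genes, as Cdx2 (-0.43) and Tcf7l1 (-0.23) were then called lower too. The orphan nuclear receptors Nr2f2 and Nr2f1 (COUP-TFs) rose most, Nr2f2 from between 0.0373 and 0.0722 RPKM in ESCs to between 32.8 and 35.6 RPKM in NPCs (difference 5.08 ± 0.0748, limma, adjusted p = 1.69e-07) and Nr2f1 by 3.81 to between 12.3 and 13.9 RPKM. The DNA methyltransferase gene Dnmt3a rose by 2.43, while its relative Dnmt3b fell by 1.58, and the histone methyltransferase gene Ehmt2 rose by 0.80. Trp53 fell by 0.84. Nr6a1, the receptor GCNF, stayed below the filter with between 0.131 and 0.227 RPKM in all 6 samples. Of 10 tested partners of Sall4 in the NuRD complex 2 fell, 2 rose and 6 were not called, with a median of -0.08, while 70.2% of all tested genes were called, 33.3% lower and 36.9% higher. Hdac1 fell by 1.05, and Mta1 rose by 0.92 and Chd4 by 0.72. The other gene called lower, Gatad2a, had a difference of -0.45 (limma, adjusted p = 0.0402), and its call was lost without the filter (limma, adjusted p = 0.0602). In that run 3 of 11 genes were lower and 2 higher, beside 22.9% and 39.5% of all genes, since Mta3 (-0.47, limma, adjusted p = 0.0023) and Rbbp4 (-0.23, limma, adjusted p = 0.0288) gained a call.

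**Figure D3:**
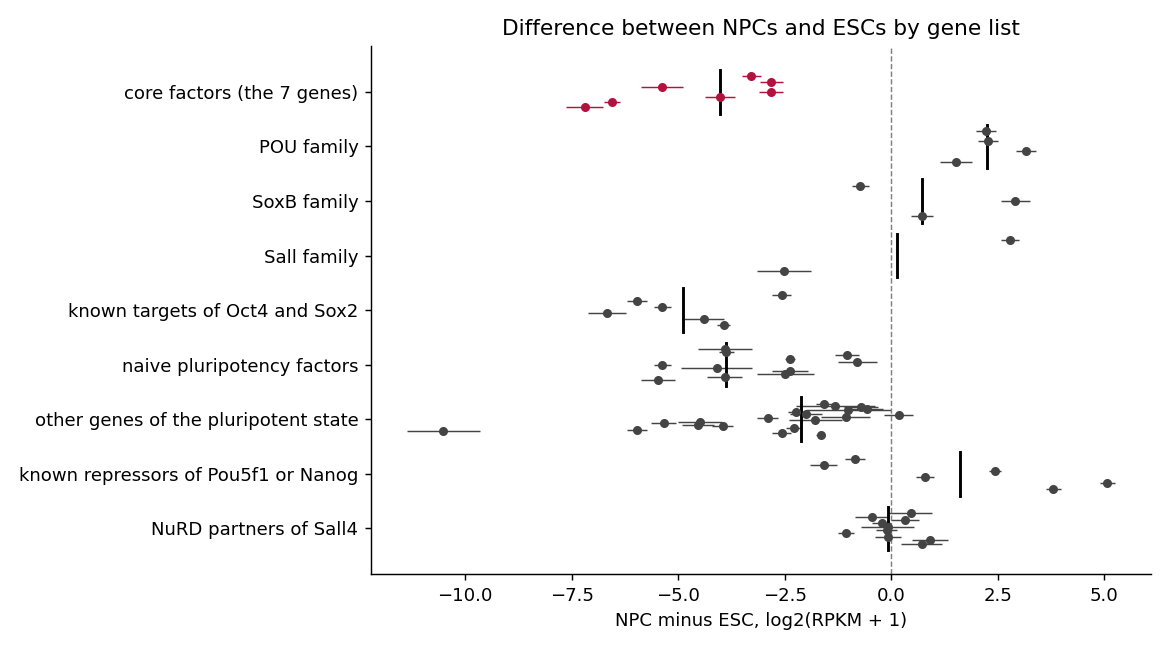
Difference between NPCs and ESCs on the log2(RPKM + 1) scale for the tested genes of each list (points, with limma 95% intervals), with the list median as a black line and 0 as a dashed line. The 7 genes have a median of -4.02 and the known targets of Oct4 and Sox2 one of -4.88, while the 4 genes of the POU family that passed the filter, all through their NPC values, lie above 0.

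For each of the 7 genes the nearest symbols over the 6 samples were found by Euclidean distance of log2(RPKM + 1) among 18360 symbols above 0 in any sample. Pou5f1 and Nanog shared both of their nearest symbols, Spp1 (distances 0.74 and 0.73) and Rpl10l (0.82 and 0.75), and were 1.23 from each other. The nearest symbols to Sall4 were Mybl2 (0.24) and Zfp990 (0.61), to Zscan10 Nfatc2ip (0.34) and Upp1 (0.57), to Utf1 Gpx2 (0.46) and Trap1a (0.58), and to Fbxo15 Ckmt1 (0.32) and Dppa4 (0.38). Sox2 had no neighbour as close: the nearest were Epop (1.49) and Ifitm1 (1.68). The closest pair within the 7 genes was Sall4 and Zscan10, at 0.79.

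Reads of a few stretches cannot be assigned with certainty. The transcripts were aligned to the GRCm38 genome with a minimum identity of 90% over at least 100 bases. Nanog had a near-identical copy on chromosome X, at chrX:89882312-89883633, in the processed pseudogene Nanog-ps1, with 97.4% identity over 1325 aligned bases, and a stretch of repeated sequence with many shorter matches (15158 of at least 100 bases in all). The last 385 bases of the Pou5f1 transcript recurred without a mismatch on chromosome 1, at chr1:159293805-159294189, within the gene Cop1. Fbxo15 had 10 short matches on 7 chromosomes, the longest of 141 bases with 93.6% identity in the gene Atf6. Sox2, Sall4, Utf1 and Zscan10 had no such match. How the counting treated reads with several matches and the strand is not stated by the study, and whether the few reads of Pou5f1, Nanog and Fbxo15 in NPCs came from these genes was not tested. The gene Timm21 lies within Fbxo15 on the opposite strand and had between 8.65 and 9.33 RPKM in NPCs, where Fbxo15 had at most 25 reads. Also on the opposite strand, Gm19553 lies within Pou5f1 and Gm14261 overlaps Sall4, and neither is listed in the RNAseq data. Their part in the reads of Pou5f1 and Sall4 was not tested. Sox2 lies within the noncoding gene Sox2ot on the same strand, and their reads cannot be told apart at Sox2.

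The position of the 7 genes relative to the nucleolus was read from the lists of NADs, which come from the ratio of H2B-Dam-NoLS to H2B-Dam and hold 1769 NADs for ESCs and 1447 for NPCs. The lists have one score per NAD, so no test was made. The paper ran its DamID pipeline at a resolution of 100 kb, about the length of the NAD nearest to Sall4 in NPCs. The ends of NADs and the distances to them are no finer than that. None of the 7 genes overlapped a NAD in ESCs or in NPCs (0 of 7 in both), while of 21402 symbols with a position 27.1% overlapped a NAD in ESCs and 21.6% in NPCs, and of the tested genes 23.1% and 20.1%. Positions are those of GENCODE M21 on GRCm38. Zscan10 (chr17:23600856-23611019) was nearest to a NAD, with 101 kb to the NAD before it in both cell types. This NAD was 99.5 kb long in ESCs and 2599.75 kb in NPCs, and its end was listed at the same position in both. Sox2 (chr3:34650405-34652461) was also 549 kb from a NAD with the same end in ESCs and NPCs. Nanog (chr6:122707489-122714633) was 385 kb from the nearest NAD in ESCs and 185 kb in NPCs. For the others the nearest NAD was farther away in NPCs than in ESCs: 989 and 1789 kb for Pou5f1 (chr17:35506018-35510772), 655 and 2756 kb for Utf1 (chr7:139943789-139945112), 219 and 335 kb for Fbxo15 and 6232 and 7648 kb for Sall4 (chr2:168748332-168767943), with the ESC distance given ahead of the NPC distance. None of the 7 genes, which all fell, thus had a NAD over it in either list. The part of nucleolar contacts in the fall was not tested.

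Promoter sequences of RefSeq (build GRCm38.p6, 250 bases before to 50 after the start) were found for 5 of the 7 genes, and for Pou5f1 and Nanog 2 each. Those nearest to the gene start of GENCODE are shown because these genes fell together and because factors of the network are known to act at some of them. Motifs were searched on both strands: the octamer ATGCAAAT (in 1.74% of all 32851 promoters of this length), the SOX motifs CATTGT (12.6%) and CTTTGT (18.7%), the nuclear receptor motif AGGTCA (16.3%), the GC box GGGCGG (35.7%) and the TATA box TATAAA (13.6%). The octamer without its last letter, ATGCAAA (4.63%), was added after seeing the sequences. Capitals mark every match on either strand, and all 5 sequences are read along the plus strand, which is that of the genes.
Pou5f1, chr17:35505782-35506081: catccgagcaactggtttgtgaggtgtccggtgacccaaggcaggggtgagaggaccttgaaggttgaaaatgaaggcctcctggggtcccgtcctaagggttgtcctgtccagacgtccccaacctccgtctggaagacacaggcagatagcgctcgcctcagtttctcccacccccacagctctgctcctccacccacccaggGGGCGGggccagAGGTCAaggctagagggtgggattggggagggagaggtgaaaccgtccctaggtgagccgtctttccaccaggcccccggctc
Nanog, chr6:122707239-122707538: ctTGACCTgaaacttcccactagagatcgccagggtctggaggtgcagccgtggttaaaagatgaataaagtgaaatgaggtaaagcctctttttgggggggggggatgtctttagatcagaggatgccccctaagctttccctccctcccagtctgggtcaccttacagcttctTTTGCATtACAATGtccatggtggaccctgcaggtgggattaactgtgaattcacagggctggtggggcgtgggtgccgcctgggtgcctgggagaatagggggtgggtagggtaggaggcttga
Sox2, chr3:34649745-34650044: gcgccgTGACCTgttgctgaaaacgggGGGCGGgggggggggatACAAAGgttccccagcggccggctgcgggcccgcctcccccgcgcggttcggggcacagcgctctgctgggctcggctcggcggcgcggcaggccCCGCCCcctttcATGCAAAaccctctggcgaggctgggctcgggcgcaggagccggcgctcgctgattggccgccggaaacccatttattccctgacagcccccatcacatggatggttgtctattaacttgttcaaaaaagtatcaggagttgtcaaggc
Utf1, chr7:139943606-139943905: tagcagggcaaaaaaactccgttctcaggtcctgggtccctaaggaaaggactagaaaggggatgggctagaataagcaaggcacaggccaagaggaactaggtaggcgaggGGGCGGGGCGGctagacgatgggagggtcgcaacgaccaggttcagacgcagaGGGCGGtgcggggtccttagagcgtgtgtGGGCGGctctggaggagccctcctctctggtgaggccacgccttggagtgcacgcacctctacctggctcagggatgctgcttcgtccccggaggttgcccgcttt
Zscan10, chr17:23600576-23600875: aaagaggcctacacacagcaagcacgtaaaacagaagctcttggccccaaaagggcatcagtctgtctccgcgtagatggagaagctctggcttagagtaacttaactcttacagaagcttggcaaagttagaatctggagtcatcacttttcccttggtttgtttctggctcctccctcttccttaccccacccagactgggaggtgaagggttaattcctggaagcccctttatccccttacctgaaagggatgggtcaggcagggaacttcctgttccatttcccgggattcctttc

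The full octamer was in none of these promoters. In Nanog the shortened octamer, on the opposite strand and beginning 75 bases before the start, was followed after a single base by the SOX motif CATTGT on the same opposite strand, in the arrangement of a composite octamer and SOX site. Pou5f1 held a GC box 45 bases and a nuclear receptor motif 33 bases before the start. In Sox2 there were 2 GC boxes, a nuclear receptor motif, a SOX motif and the shortened octamer, and in Utf1 4 GC boxes, of which 2 overlap by a letter. Zscan10 held none of the motifs. The promoters of Sox2 and Utf1 had 27 and 17 CG pairs, those of Pou5f1, Nanog and Zscan10 11, 4 and 4, and the median of all promoters was 7. A match is a description of the sequence and was not set against binding.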

How the data were processed

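The authors deposited RNAseq as RPKM, one table of 22064 lines per cell type. Per the methods, reads were checked with FastQC, freed of rRNA with SortMeRNA, trimmed with Trimmomatic and aligned to mm10 with STAR; the submitters' processing notes also list Bowtie2 2.3.4.3 and Subread 1.4.6-p4. The labels name a TruSeq RNA v2 kit and the paper a stranded one; the annotation and whether counting used the strand are not stated. The authors deposited NADs with 1 score for both DamID experiments. Starts of NADs are printed 1 higher.

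The 7 genes and all lists were chosen with earlier results of these data known. Of 153 symbols on several lines, the line with the highest mean was used. Groups were compared with limma 3.58.1 (R 4.3.3; eBayes with trend) on log2(RPKM + 1), checked on simulated data. Sox2 ratios were tested by exact permutation (scipy 1.17.1) and copies sought with blastn 2.17.0. Reads were recovered with spans of GENCODE M21. Named genes are the 7 genes, called relatives and repressors, the 3 largest falls and rises of each other list, Pax6, Nes, Sox1 and the 2 nearest symbols; others were named after their values were seen. Alternatives were other pseudocounts, filters, scalings, eBayes options, length scales, left-out samples and the replicate block. Protein sequences were not analysed here.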

Additional observations from a re-analysis of the deposited data

How the results depend on the processing

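All 7 genes kept their fall and their call under each of the 19 alternatives run on the fit (133 of 133 values), with the largest adjusted p of limma at 5.6e-05. The size of the fall depended on the scale: Fbxo15 ranged from -9.07 (limma voom on the recovered reads, chosen after seeing the data) to -2.69, Pou5f1 from -11.42 to -6.99, Nanog from -10.90 to -6.54, Utf1 from -7.86 to -5.16, Zscan10 from -4.43 to -3.24, Sox2 from -4.30 to -3.74 and Sall4 from -3.55 to -2.76. The sign of the Sox2 ratio to Fbxo15 was reversed with pseudocounts of 0.1 (1.63) and 0.01 (3.99), and that to Zscan10 with 0.1 (0.10) and 0.01 (0.24). A pseudocount of 1 exceeds the NPC values of both genes. It also exceeds those of Pou5f1, Nanog and Utf1, where the sign held.

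Over all genes, 5500 were called, 2606 lower and 2894 higher. Without the filter 11454 were called, 4209 lower and 7245 higher, out of 18360 tested. On the TPM scale, which moved the median of all tested genes from 0.02 to 0.45, the calls were 1585 lower and 3521 higher, and with median ratio scaling (median -0.19) 3228 lower and 2344 higher. With single samples left out, 4616 to 6884 genes were called, most without ESC replicate 3.

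Samples of the same number showed no clear pairing: the correlations of their deviations were 0.113, -0.0815 and 0.0322, and not every sample correlated best with its own number. With so few samples per cell type, and ESC replicate 3 apart from the others, such correlations could miss a pairing. With the replicate number as a block 2460 genes were called lower and 2754 higher, and all 7 factors remained called. The order of levels on the TPM scale differed only in that Sox2 stood above Pou5f1 in ESCs. Between 5 and 25 reads per NPC sample limit the ratios of Pou5f1, Nanog, Utf1 and Fbxo15.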
